A study of Rattus norvegicus with 12 samples.

Results

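The 4 mature miRNAs cut from the neighbouring Mir132 and Mir212 hairpins (miR-132-3p, miR-132-5p, miR-212-3p and miR-212-5p) were followed in small RNA libraries of rat hippocampus. They were chosen by name, as every entry for miR-132 or miR-212 (rno-miR-132-3p, rno-miR-132-5p, rno-miR-212-3p and rno-miR-212-5p in the rat naming), and are 4 of the 753 mature miRNAs listed for each rat and 4 of the 420 retained for testing. The libraries came from 12 adult male Sprague Dawley rats aged P70 to P80, of which 4 received vehicle and 8 received ethanol at 4 g/kg by intraperitoneal injection, and all tissue was collected 3 h later. The study describes 8 rats per group, and its other vehicle rats were not analysed here, so every vehicle value rests on 4 rats. The study describes the ethanol as diluted in physiological saline, and the rats carried no genetic alteration named in the labels. The labels give the tissue as right hippocampus and the study as dorsal hippocampus; each library was made from whole tissue of a single rat, so neurons, glia, vessels and any adjoining choroid plexus were read together.

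MiR-132 and miR-212 are transcribed together from a short intergenic locus. In neurons this transcription is known to be driven by the factor CREB, downstream of synaptic activity and of brain-derived neurotrophic factor (BDNF), and for this reason the pair are called activity-induced miRNAs. The hairpin precursor is cut by Dicer into a 5p and a 3p strand, and the strand loaded into an Argonaute protein guides the silencing of mRNAs that match its seed, bases 2 to 8 of the miRNA. MiR-132-3p, the best-studied of the 4 strands, promotes dendrite growth and spine formation in hippocampal neurons. These libraries hold mature strands and not the primary transcript, so recent transcription of the locus could not be read from them.

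The mature sequences are shown because the strands of the locus are paired by seed in an uneven way. They were taken from RefSeq (rat assembly GRCr8), which held all 4, and are written 5′ to 3′ with the seed in capitals.
miR-132-3p: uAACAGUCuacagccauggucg
miR-212-3p: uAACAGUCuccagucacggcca
miR-132-5p: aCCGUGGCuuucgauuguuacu
miR-212-5p: aCCUUGGCucuagacugcuuacug
The 3p strands share their seed, and no other rat mature miRNA among the 693 names in that table carries it. Counted from the 5′ end, the 2 sequences are identical over the first 9 bases and at 17 of 22 positions, with the substitutions A10C, C14U, U17C, U20C and G22A from miR-132-3p to miR-212-3p. The 5p strands differ in length, at 22 bases for miR-132-5p and 24 for miR-212-5p, and were compared from the 5′ end without gaps. They match at 14 of the 22 positions compared in this way. The stretch uuacu near both 3′ ends is then out of register, so this count understates their likeness and cannot be set against that of the 3p strands. The substitution G4U falls within the seed, so that miR-132-5p and miR-212-5p have different seeds and share theirs with no other name in the table.

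On GRCr8 the strands lie in the order miR-212-5p (chr10:60521771-60521794), miR-212-3p (chr10:60521811-60521832), miR-132-5p (chr10:60522055-60522076) and miR-132-3p (chr10:60522091-60522112), all on the plus strand. A stretch of 222 bases separates the 2 precursors' mature strands, no gene is annotated between Mir212 and Mir132, and the genes listed around them include Hic1 on the Mir212 side and Ovca2 on the Mir132 side. Deposited counts were matched to these entries by miRNA name and not by position, since the submitters' notes name an older assembly, rn5. The Mir132 hairpin (chr10:60522033-60522133, plus strand) is printed with its 2 mature strands in capitals, to show which strand each count refers to.
Mir132 hairpin: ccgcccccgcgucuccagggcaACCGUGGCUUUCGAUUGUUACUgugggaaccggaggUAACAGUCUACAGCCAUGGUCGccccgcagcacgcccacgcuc
The strands occupy bases 23 to 44 and 59 to 80 of the hairpin and are separated by a loop of 14 bases.

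Library totals ranged from 2243413 to 4917928 estimated counts in the vehicle group and from 1960704 to 3598771 in the ethanol group, and the mean log2 total did not differ beyond the spread between rats (difference of -0.38, two-sided exact permutation test, p = 0.156). Levels are given as CPM, the counts of a library brought to a common total with edgeR's TMM factors. At these depths every member was read well above the detection floor of 3 counts (0.610 to 1.53 CPM), from 90 counts for miR-132-5p in ethanol rat 4 to 3751 for miR-132-3p in vehicle rat 19. This floor covers counting error only, and reads without molecular identifiers are not independent molecules. Markers of other cells were read in every library. The summed level of the 4 vessel markers ranged from 38690 to 48386 CPM in vehicle rats and from 32606 to 67959 CPM in ethanol rats, and that of the 4 choroid plexus markers from 28982 to 50277 CPM and from 16519 to 70899 CPM. Of 5 muscle miRNAs, 3 were retained, summing to 124 to 1762 CPM in vehicle rats and 111 to 1710 CPM in ethanol rats. None of the 6 marker lists passed the test between groups for its mean level (exact permutation test, lowest adjusted p over 6 lists of 0.382). The log2 difference was -0.15 for neuron markers (exact permutation p = 0.127) and -1.91 for muscle markers (exact permutation p = 0.0828).

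MiR-132-3p was the most abundant strand of the locus in every library. Its level was 787, 803, 789 and 761 CPM in vehicle rats 9, 10, 19 and 20, and ran from 565 through a median of 738 to 855 CPM in the 8 ethanol rats. Vehicle rats were nearly identical, whereas ethanol rats spread to both sides of them, with 4 below every vehicle rat (rats 3, 4, 7 and 8), 3 within the vehicle range and 1 above it. Among all 753 entries it ranked between 86 and 105 by count, and its mean level exceeded that of 328 of the 420 retained miRNAs.

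MiR-212-3p, which carries the same seed, was read at about a 3-fold lower level. It stood at 284, 211, 284 and 280 CPM in vehicle rats 9, 10, 19 and 20, and between 171 and 284 CPM in ethanol rats with a median of 236. Vehicle rat 10 lay apart from the rest of its group, and 6 of 8 ethanol rats fell within the vehicle range. MiR-212-5p, a strand with a seed of its own, followed closely. Its vehicle levels were 224, 188, 187 and 193 CPM, and its ethanol levels ran from 173 through 203 to 247 CPM, so that the groups overlapped, with 4 ethanol rats below and 3 above every vehicle rat.

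MiR-132-5p was the least abundant strand. In vehicle rats it was read at 51.2, 50.2, 47.1 and 51.1 CPM, and in ethanol rats between 37.2 and 58.7 CPM with a median of 49.6. No ethanol rat fell within the narrow vehicle range, with 4 above it and 4 below it (rats 4, 8, 16 and 24). Its counts of 90 to 240 per library carry a median counting error of 8.62%, against 2.07% for miR-132-3p, 3.57% for miR-212-3p and 3.94% for miR-212-5p. The coefficient of variation over the 12 rats was 14.5% for miR-132-5p and 11.9%, 16.1% and 13.5% for the other 3 in the same order. Among vehicle rats alone it was 3.83% for miR-132-5p, under the counting error of those libraries (6.45% to 9.21%), and 2.25% for miR-132-3p, within theirs (1.63% to 2.30%).

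**Figure D1:**
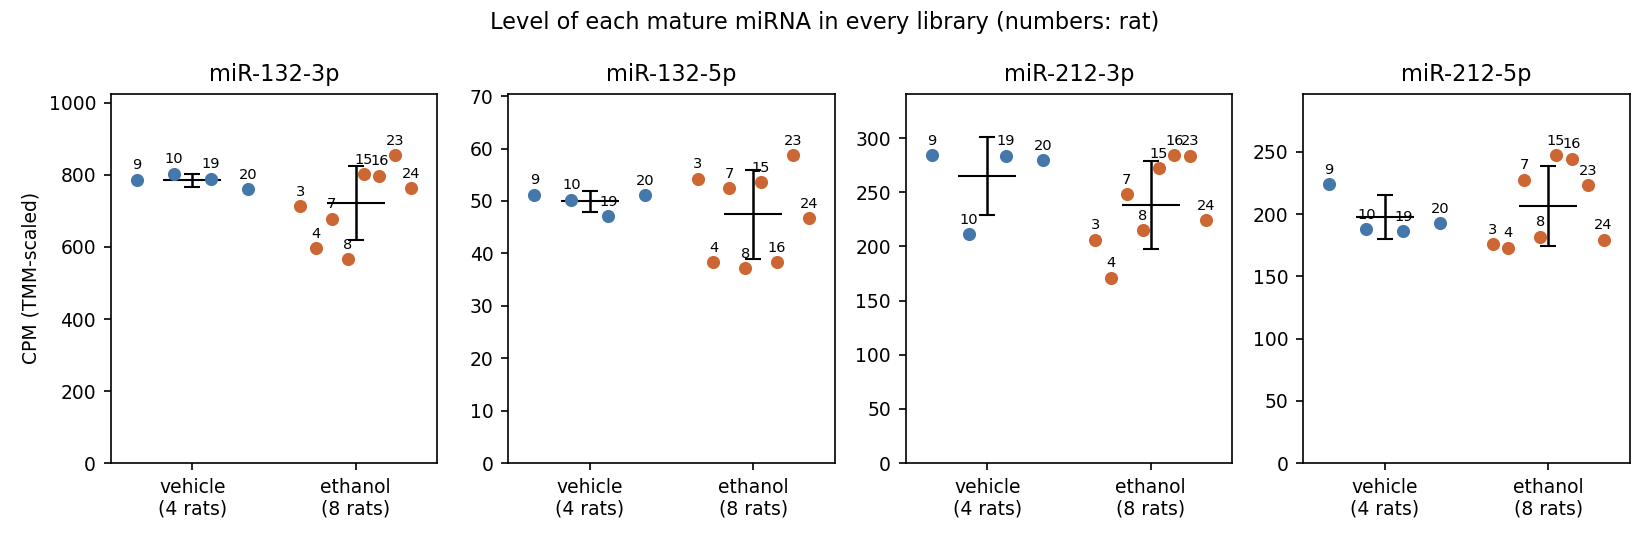
CPM of each mature miRNA (vertical axes, linear from 0) in the 4 vehicle and 8 ethanol rats, with each point labelled by rat number and with the group mean and SD in black. MiR-132-3p in vehicle rats lies between 761 and 803 CPM, while ethanol rats run from 565 to 855 CPM, and the groups overlap or interleave for all 4 miRNAs.

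Over all 12 rats the order by mean level was miR-132-3p (743 ± 88.0 CPM, SD, n = 12), miR-212-3p (247 ± 39.8), miR-212-5p (204 ± 27.6) and miR-132-5p (48.2 ± 6.98). The ranges of miR-212-3p and miR-212-5p overlapped, and those of the other neighbours in this order did not. Together the strands came to between 980 and 1421 CPM per library. MiR-132-3p made up 56.2% to 64.1% of this amount, miR-212-3p 16.9% to 21.8%, miR-212-5p 14.3% to 18.9% and miR-132-5p 2.80% to 4.71%. Efficiency of adapter ligation differs between sequences in this kind of library, so these are shares of reads, not of molecules.

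The 2 hairpins differed in how unequal their arms were. For miR-132 the 3p strand outnumbered the 5p strand in all libraries, by 15.3, 15.9, 16.7 and 14.9 in vehicle rats 9, 10, 19 and 20 and by 12.9 to 20.8 (median 15.0) in ethanol rats. For miR-212 the 3p to 5p ratio was 1.27, 1.12, 1.52 and 1.45 in vehicle rats and 0.988 to 1.27 (median 1.17) in ethanol rats. The strands of miR-212 were therefore read in near-equal numbers, and the 3p strand was the more frequent in every library except that of ethanol rat 4.

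Both hairpins were set against the 122 miRNA names with both arms retained, called precursors here. Arms were paired by name, and a name can stand for more than a single hairpin. The median inequality between arms was 15.7-fold in either direction, and 60 precursors had arms closer to equal than miR-132, as did 33 of the 49 precursors whose arms both averaged at least 100 counts. For miR-212 the count was 1 of 122, and 0 of those 49. Across rats the SD of the log2 ratio was 0.18 for miR-132 and 0.17 for miR-212 against a median of 0.29 over all precursors and 0.19 over those 49. These are descriptions over precursors, which are not independent replicates.

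Neither arm ratio passed the test between groups after adjustment. For miR-212 the vehicle ratios averaged 1.34 ± 0.181 (SD, n = 4) and the ethanol ratios 1.15 ± 0.0917 (SD, n = 8), for a log2 difference of -0.21 (two-sided exact permutation test, p = 0.0465, adjusted p = 0.139 over 3 ratios). In 3 of the ethanol rats the ratio was under the lowest vehicle value, and in the other 5 it was within the vehicle range. With vehicle rat 10 left out the log2 difference was -0.30 (exact permutation p = 0.0121, adjusted p = 0.0364). Without vehicle rat 19 it was -0.15 (exact permutation p = 0.158) and without vehicle rat 20 -0.17 (exact permutation p = 0.145). Over all 122 precursors, of which 2 (1.64%) had an unadjusted p under 0.05, its adjusted p was 0.965 by the same exact permutation test. For miR-132 the mean went from 15.7 ± 0.798 (SD, n = 4) with vehicle to 15.4 ± 2.46 (SD, n = 8) with ethanol, for a log2 difference of -0.04 (exact permutation p = 0.729, adjusted p = 0.84).

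The balance between the seed-sharing strands did not pass the test either. MiR-132-3p exceeded miR-212-3p by 2.77, 3.80, 2.78 and 2.72 in vehicle rats 9, 10, 19 and 20 and by 2.63 to 3.49 (median 2.98) in ethanol rats, a log2 difference of 0.03 (exact permutation p = 0.84, adjusted p = 0.84). The sign changed when vehicle rat 9, 19 or 20 or ethanol rat 4 was left out. Rat 10 was the vehicle rat with the highest ratio, with miR-132-3p level with its group (803 CPM) and miR-212-3p the lowest of it (211 CPM). In the 5p strands the order was opposite, and miR-212-5p outnumbered miR-132-5p by 3.24 to 6.37 in all 12 rats.

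**Figure D2:**
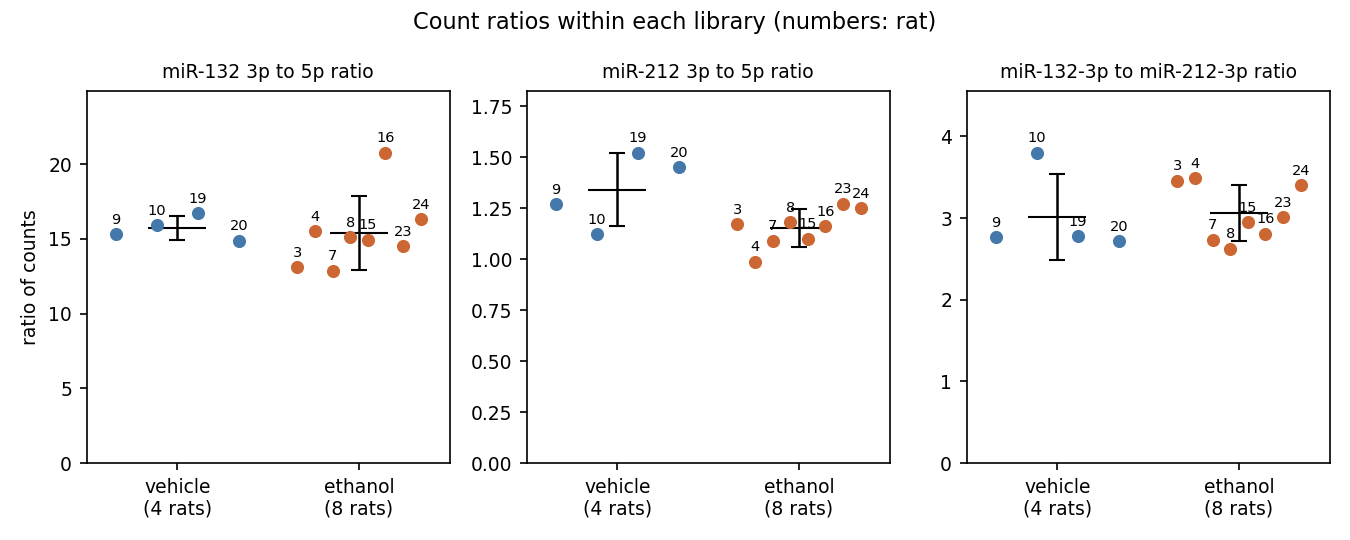
Ratios of counts within each library (vertical axes, linear from 0) by group, with points labelled by rat and with means and SD in black. The miR-132 arm ratio lies between 12.9 and 20.8, the miR-212 arm ratio between 0.988 and 1.52, and the miR-132-3p to miR-212-3p ratio between 2.63 and 3.80.

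The comparison of ethanol with vehicle asked whether the level of the locus had moved 3 h after the injection, and no strand passed the test. Across the 420 retained miRNAs, edgeR's quasi-likelihood test gave 0 (0%) with a Benjamini-Hochberg adjusted p under 0.05 and 17 (4.05%) with an unadjusted p under 0.05, and the 4 strands were in neither count. DESeq2 gave 1 adjusted call (the muscle miRNA miR-133b-3p, named after its value was seen) and limma-trend gave 0, with 16 unadjusted in each. In bulk tissue, fewer cells of a type and less RNA per cell cannot be told apart.

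MiR-132-3p averaged 785 ± 17.6 CPM (SD, n = 4) with vehicle and 722 ± 103 CPM (SD, n = 8) with ethanol. Its log2 fold change of -0.12 had a standard error of 0.11 and a 95% interval of -0.35 to 0.11 (edgeR, adjusted p = 0.971; exact permutation p = 0.253), which spans 0.786 to 1.08 of the vehicle level. The value was -0.07 with the log2 library total as a covariate.

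MiR-212-3p averaged 265 ± 35.9 CPM (SD, n = 4) and 238 ± 40.9 CPM (SD, n = 8), and its log2 fold change was -0.15, within an interval of -0.46 to 0.15 (edgeR, adjusted p = 0.971; exact permutation p = 0.289). With the log2 library total as a covariate the value was -0.02. The 5p strands stood on either side of 0. MiR-132-5p averaged 49.9 ± 1.91 (SD, n = 4) CPM with vehicle and 47.4 ± 8.53 CPM (SD, n = 8) with ethanol, and its log2 fold change of -0.07 lay in an interval of -0.36 to 0.22 (exact permutation p = 0.485). MiR-212-5p averaged 198 ± 17.7 CPM (SD, n = 4) with vehicle and 207 ± 32.1 CPM (SD, n = 8) with ethanol, and its value of 0.06 lay in an interval of -0.20 to 0.33 (exact permutation p = 0.703). Both had an adjusted p of 0.971 in edgeR. All 4 directions were kept under every normalization, filter and test tried and with each rat left out, with a lowest adjusted p of 0.848 (edgeR, DESeq2 and limma-trend).

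**Figure D3:**
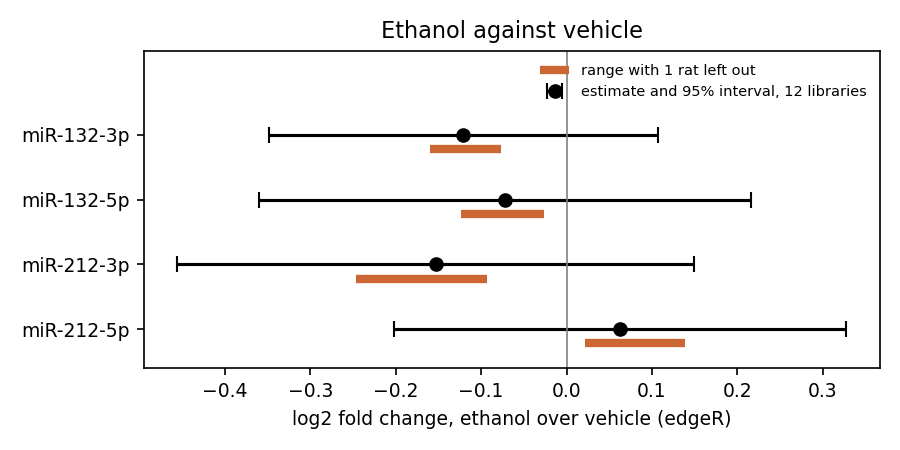
Log2 fold change of ethanol over vehicle (horizontal axis) for each miRNA from edgeR, with 95% intervals as black bars and the range with each rat left out in turn as orange bars. All 4 intervals include 0, and the estimates run from -0.15 for miR-212-3p to 0.06 for miR-212-5p.

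The spread of miR-132 was wider among ethanol than among vehicle rats. The SD of log2 CPM was 0.03 in vehicle and 0.21 in ethanol rats for miR-132-3p, a ratio of 6.52, and 0.06 and 0.26 for miR-132-5p, a ratio of 4.73. The median ratio over the 420 retained miRNAs was 1.24. The vehicle spread of both miR-132 strands lay at or under counting error, so these ratios have denominators too small to rank. For miR-212-3p and miR-212-5p the ratios were 1.22 and 1.80. This feature was noticed in the values and was not tested, and an SD over 4 rats is itself imprecise. The 4 ethanol rats with the least miR-132-3p (rats 3, 4, 7 and 8) also had the smallest ethanol libraries, at 1960704 to 2605440 counts against 2898042 to 3598771 in the other 4. They also carry the lowest rat numbers, the other ethanol rats being 15, 16, 23 and 24. The labels do not say what the numbers stand for, and number and depth cannot be told apart among these rats. Across all 12 rats the level of miR-132-3p and the log2 library total had a Pearson r of 0.44 (permutation p = 0.146) and a Spearman rho of 0.38 (permutation p = 0.227), with adjusted p = 0.34 and 0.426 over 28 relations and r = 0.47 without the 2 rats farthest in total. For miR-212-3p r was 0.62 (permutation p = 0.0304, adjusted p = 0.122) and rho 0.57 (permutation p = 0.0583, adjusted p = 0.233), and the part of depth in the spread was not tested.

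The strands of the locus varied together across rats only in part. Of the 6 pairs, 2 had an adjusted permutation p under 0.05 for Pearson's r of log2 CPM over 12 rats. These were the 2 arms of miR-212 (r = 0.71, permutation p = 0.0113, adjusted p = 0.037; rho = 0.69, permutation p = 0.017, adjusted p = 0.102) and the seed-sharing 3p strands (r = 0.69, permutation p = 0.0123, adjusted p = 0.037; rho = 0.48, permutation p = 0.115, adjusted p = 0.231). The arms of miR-132 had r = 0.63 (permutation p = 0.0262, adjusted p = 0.0524, or r = 0.70 and adjusted p = 0.025 when scaled by library totals alone) and rho = 0.38 (permutation p = 0.228, adjusted p = 0.342). Rank correlations passed adjustment for 0 of the 6 pairs.

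The weakest pair was formed by the 5p strands, with r = 0.27 (adjusted permutation p = 0.395) and rho = 0.31 (adjusted permutation p = 0.397). MiR-132-3p with miR-212-5p gave r = 0.49 (adjusted permutation p = 0.158) and rho = 0.52 (adjusted permutation p = 0.231), and miR-132-5p with miR-212-3p gave r = 0.39 (adjusted permutation p = 0.245) and rho = 0.11 (adjusted permutation p = 0.731). All 6 values were positive, where over all pairs of retained miRNAs the lower and upper quartiles of r were -0.26 and 0.25. Over pairs with a mean count of at least 100, as the 4 strands have, these quartiles were -0.28 and 0.29. The r of the 5p strands lay between them. The 6 pairs reuse the same 4 strands and are not independent. Counting error is largest for miR-132-5p. The SD of the log2 ratio of the 5p strands was 0.25, where counting alone would give 0.14. For the miR-132 arms these values were 0.18 and 0.13, for the miR-212 arms 0.17 and 0.08, and for the 3p strands 0.18 and 0.06. The part of counting error in these relations was not tested.

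Several of these relations rested on few rats. Without ethanol rats 4 and 8, the farthest from the median of miR-132-3p, its r with miR-132-5p was -0.04, with miR-212-3p 0.44 and with miR-212-5p 0.24. With single rats left out, r between the miR-132 arms ran from 0.45 to 0.82. The lowest was without ethanol rat 8 (adjusted permutation p = 0.243) and the highest without ethanol rat 16 (adjusted permutation p = 0.0341). The arms of miR-212 kept r = 0.59 without ethanol rats 3 and 4. Without the 2 rats farthest in miR-132-5p, ethanol rats 8 and 16, its r was 0.63 with miR-212-3p and 0.60 with miR-212-5p. As deviations from group means, the miR-212 arms had r = 0.80 (adjusted permutation p = 0.0142) and the 3p strands r = 0.65 (adjusted permutation p = 0.0631), and among the 8 ethanol rats alone r was 0.89 (adjusted permutation p = 0.0384) and 0.78 (adjusted permutation p = 0.0677). The miR-212 arms were the pair with an adjusted p under 0.05 within groups. With each rat left out, the number of pairs under that threshold ran from 0 (without vehicle rat 9 or ethanol rat 4, 8, 15, 23 or 24) to 3. Among the 122 precursors the median r between arms was 0.38, with 25 precursors above miR-212 and 37 above miR-132. Over the 49 precursors with at least 100 counts in both arms the median was 0.56, with 13 above miR-212 and 19 above miR-132.

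**Figure D4:**
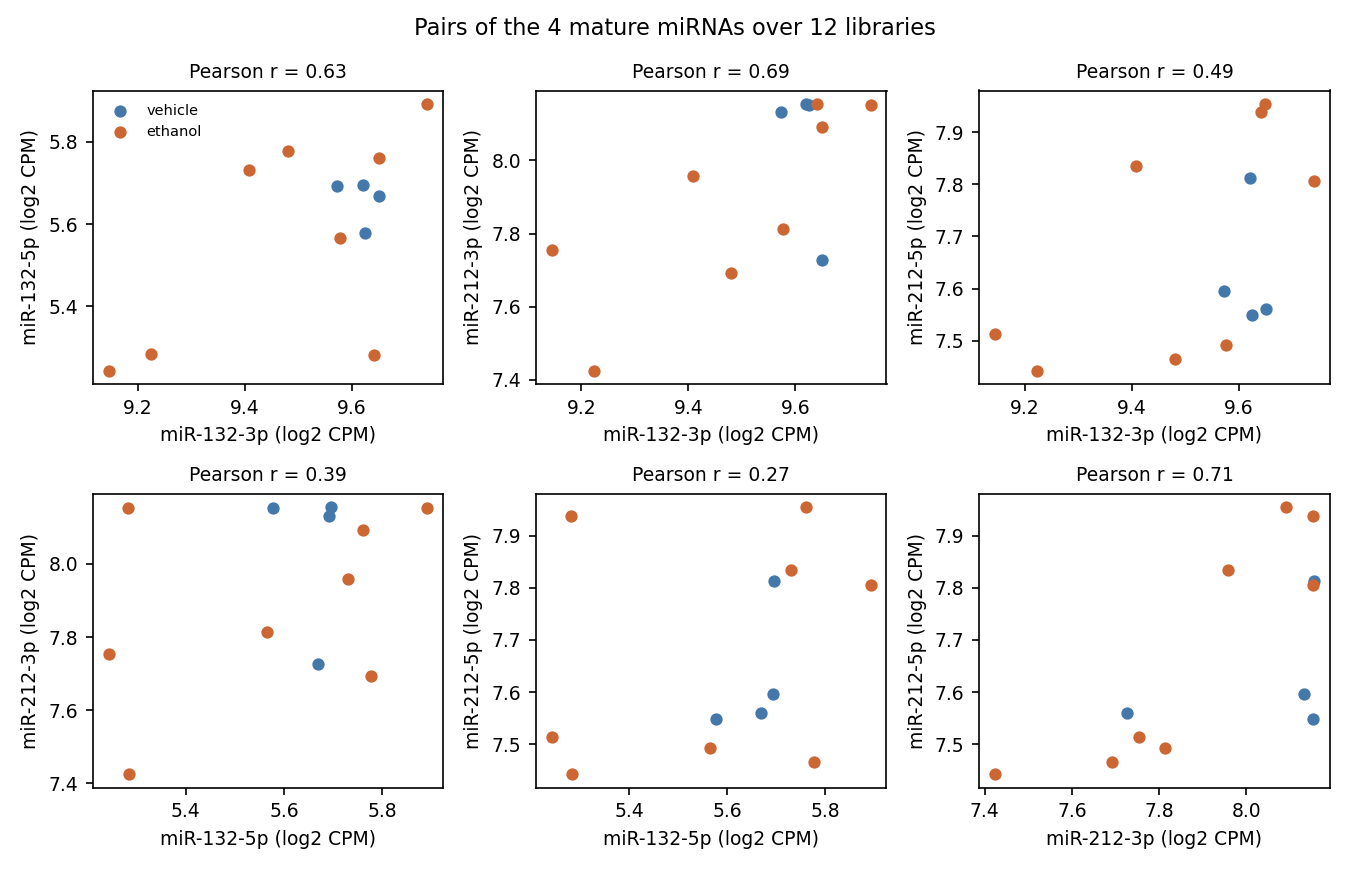
Log2 CPM of each pair of the 4 mature miRNAs, with 1 point per rat coloured by group and Pearson's r over 12 rats above each panel. The arms of miR-212 (r = 0.71) and the 3p strands (r = 0.69) form the clearest diagonals, while the panels with miR-132-5p show ethanol rat 16 low in that strand alone.

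Some other miRNAs had a higher r with miR-132-3p than its own locus partners had. By Pearson's r of log2 CPM over the 12 rats, the 5 most similar of the other 419 were miR-29a-3p (0.90), miR-128-3p (0.88), miR-540-5p (0.79), miR-487b-3p (0.77) and miR-139-5p (0.76). MiR-128-3p is a neuron-enriched miRNA, and miR-487b-3p and miR-540-5p come from the imprinted Dlk1-Dio3 region. MiR-212-3p ranked 14 in this order, miR-132-5p 25 and miR-212-5p 57. For miR-212-3p the 5 closest were miR-361-3p (0.84), miR-676 (0.82), miR-26a-5p (0.80), let-7g-5p (0.80) and miR-26b-5p (0.80), with its own other arm at 12 and miR-132-3p at 15. Seen from miR-212-5p, miR-212-3p ranked 4. The closest miRNAs were picked by r itself among 419, so values this high can arise from the selection alone. These orders are descriptions over rats that share their libraries and scaling, and carry no test.

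Levels of the strands were also set against markers of cell types. The mean of the 4 vessel markers (miR-126a-3p and miR-126a-5p of endothelium, miR-143-3p and miR-145-5p of smooth muscle) had a negative r with each strand, of -0.72 for miR-132-3p, -0.55 for miR-132-5p, -0.73 for miR-212-3p and -0.78 for miR-212-5p. Over the 28 relations computed between the strands and 6 marker means and depth, the adjusted permutation p of these values lay between 0.0585 and 0.202. By Spearman's rho, the relation passed adjustment for miR-132-3p (rho = -0.81, adjusted permutation p = 0.037) and miR-212-5p (rho = -0.80, adjusted permutation p = 0.037). Without the 2 rats farthest in vessel markers r was -0.66 for miR-132-3p and -0.71 for miR-212-5p, as deviations from group means it was -0.73 and -0.81, and with each rat left out it lay between -0.76 and -0.63 and between -0.85 and -0.72.

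Of 6 planned neuron markers, 4 were matched by name (miR-124-3p, miR-128-3p, miR-137-3p and miR-138-5p). MiR-9-5p and miR-9-3p were not matched, because they are listed as miR-9a-5p and miR-9a-3p. The mean of the 4 matched markers had r = 0.80 with miR-132-3p (adjusted permutation p = 0.0585) and rho = 0.67 (adjusted permutation p = 0.142). Its r was 0.77 both without the 2 farthest rats and as deviations from group means. For miR-132-5p, miR-212-3p and miR-212-5p r was 0.39, 0.48 and 0.39. MiR-9a-3p, outside this mean, had r = 0.81 with miR-132-5p and ranked 4 among the other 419 miRNAs for that strand. MiR-9a-5p was not among the 5 most similar to that strand. Single markers differed, from miR-128-3p at 0.88 to miR-137-3p at 0.43 with miR-132-3p. With miR-132-5p they ran from miR-128-3p at 0.53 to miR-137-3p at -0.06. With miR-212-3p they ran from miR-137-3p at 0.48 to miR-124-3p at -0.03, and with miR-212-5p from miR-128-3p at 0.46 to miR-124-3p at -0.17. For choroid plexus markers the relation was closest with miR-132-5p (r = -0.70, adjusted permutation p = 0.0657; rho = -0.78, adjusted permutation p = 0.037), against r = -0.41 for miR-132-3p, 0.10 for miR-212-3p and -0.11 for miR-212-5p, and whether these values differ between strands was not tested. The part of cell composition in the level of the locus was not tested.

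**Figure D5:**
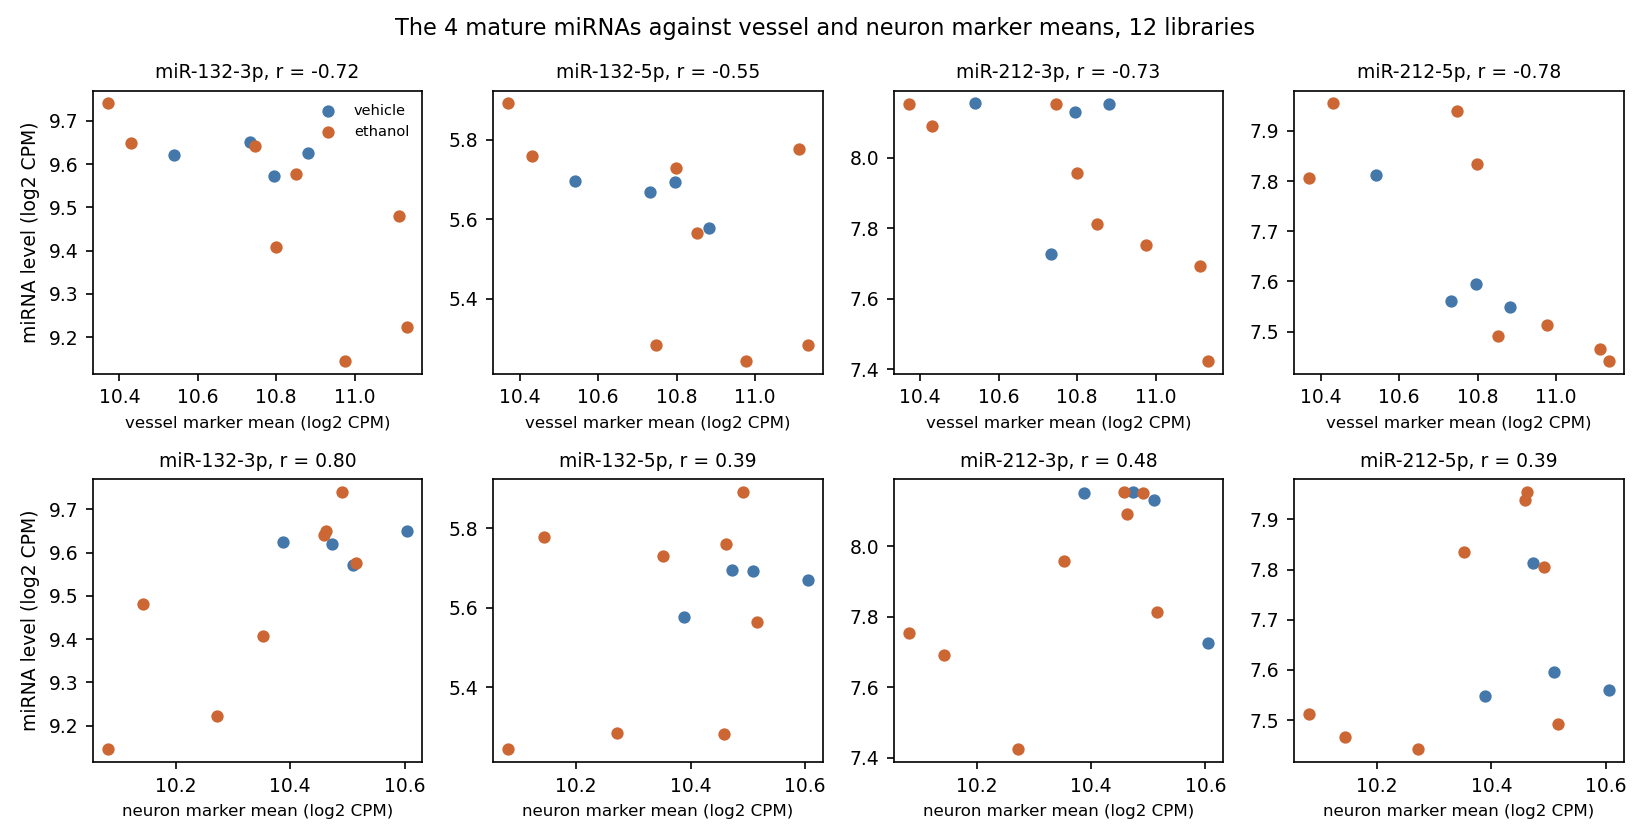
Log2 CPM of the 4 mature miRNAs (vertical axes) against the mean log2 CPM of 4 vessel markers (upper row) and 4 neuron markers (lower row), with 1 point per rat coloured by group. All 4 strands slope downward with vessel markers (r from -0.78 to -0.55), and miR-132-3p slopes upward with neuron markers (r = 0.80) with ethanol rats 3, 4, 7 and 8 at its lower left.

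Among 15 other miRNAs linked to neuronal activity or synaptic plasticity, 12 were tested and 0 had an adjusted p under 0.05 in edgeR, DESeq2 or limma-trend, with 2, 2 and 1 under 0.05 before adjustment, where 17 of 420 (4.05%) were in edgeR. Over all alternatives the unadjusted count ran from 0 (with library totals alone, with the total as a covariate or without vehicle rat 9) to 3. MiR-381-3p is listed at 0 in every library. MiR-9-3p and miR-9-5p are listed as miR-9a-3p and miR-9a-5p, and the counts over the 12 leave them out. Both were retained, with log2 fold changes of -0.04 and -0.08 (edgeR, unadjusted p = 0.632 and 0.283). Of the 12, 5 were higher and 7 lower after ethanol, with a median log2 fold change of -0.05, while over all 420 miRNAs 193 were higher and 227 lower, with a median of -0.02. Both with an unadjusted p under 0.05 in edgeR were higher. They were miR-134-5p, a repressor of the spine kinase Limk1, at a mean of 147 CPM (139 to 160) with vehicle and 181 CPM (146 to 235) with ethanol (exact permutation p = 0.0222), and miR-146a-5p, a brake on innate immune signalling, at 62.6 CPM (57.2 to 69.2) and 76.3 CPM (59.4 to 90.6) (exact permutation p = 0.0606). The next by p were miR-138-5p, a repressor of the depalmitoylating enzyme APT1 at spines, with a log2 fold change of -0.22 (exact permutation p = 0.113), miR-181a-5p with 0.18 (exact permutation p = 0.156) and miR-188-5p with -0.22 (exact permutation p = 0.38).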

How the data were processed

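Small RNA (20 to 30 nt, as the study describes) from the hippocampus of 12 rats was sequenced, and the authors deposited expected counts (estimated counts) per mature miRNA for each rat, unscaled. The submitters' processing notes name cutadapt, Partek and rn5; versions and the miRNA annotation are not given in the sources used here. Counts of miR-132-3p were fractional in 12 libraries and those of miR-212-3p in 2, and those of both 5p strands in 0.

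Counts were rounded. MiRNAs below 10 reads in at least 10 of the libraries were left out. Groups came from the sample titles and were compared with edgeR 4.0.16 (quasi-likelihood, TMM, Benjamini-Hochberg over 420 miRNAs; R 4.3.3), with DESeq2 1.42.0 and limma 3.58.1 as alternatives. Log2 CPM used a prior count of 2 and ratios a pseudocount of 0.5. Exact permutation tests were two-sided over all 495 splits into 4 and 8 (smallest p 0.00202). Correlations used 100000 permutations. The edgeR fit was checked on simulated counts. Named miRNAs were the 4 members, a list of 15 other activity-linked miRNAs (values for the 5 with the smallest p) and the 5 miRNAs most correlated with each 3p strand. The members and lists were chosen with earlier results of these data known. Libraries were run in sets that the labels do not name, so batches could not be compared, and p-values measure the spread between these rats.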

Additional observations from a re-analysis of the deposited data

Results flagged for a closer look

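Values of the 4 miRNAs and the 3 ratios were examined for single rats set apart within a group, in 14 sets of values, of which about 0.7 would be marked by chance. In 2 sets the same rat was marked. Vehicle rat 10 was lowest for miR-212-3p, at 211 CPM where the remaining 3 had 280 to 284 CPM. On the log2 scale this gap was 0.946 of the whole vehicle range. The same rat had the highest miR-132-3p to miR-212-3p ratio, 3.80 against 2.72 to 2.78, and the gap was 0.935 of the log2 range. That ratio has the marked miR-212-3p count as its denominator, so the 2 marks are not independent. The library of rat 10 held 2243413 counts, the smallest of the vehicle group. Without this rat the log2 fold change of miR-212-3p was -0.25 in place of -0.15 (edgeR, adjusted p = 0.867). No cause was tested.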

How the results depend on the processing

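The settings were tried as planned, except the adjustment over 122 precursors, which was chosen after seeing the data and left both arm ratios without a call. The 4 fold changes kept their direction and stayed without a call in each of 23 alternatives, but their size moved: with each rat left out, miR-132-3p ranged from -0.16 to -0.08 (without ethanol rat 8), miR-132-5p from -0.12 to -0.03 (without vehicle rat 20), miR-212-3p from -0.25 to -0.09 and miR-212-5p from 0.02 (without ethanol rat 15) to 0.14 (without vehicle rat 9). The number of retained miRNAs with an adjusted p under 0.05 was 0 in 21 alternatives and 1 with DESeq2, and with each rat left out it ranged from 0 to 3 (3 without ethanol rat 16, the muscle miRNAs miR-1b, miR-133a-3p and miR-133b-3p). The number of pairs with an adjusted p under 0.05 was 2, against 3 with library totals alone, 1 as deviations from group means and 1 among ethanol rats alone; with each rat left out it ranged from 0 to 3. It was 0 without vehicle rat 9 or ethanol rat 4, 8, 15, 23 or 24, and 1 without vehicle rat 10 or 19. With each rat left out, the log2 difference of the miR-212 arm ratio ranged from -0.2956 to -0.149, that of the miR-132-3p to miR-212-3p ratio from -0.0176 to 0.1437 and that of the library total from -0.5885 to -0.211. The ratio of the 3p strands was reversed without vehicle rat 9 (-0.0093), 19 (-0.0071) or 20 (-0.0176) or ethanol rat 4 (-0.0007). The library total passed only without vehicle rat 10 (exact permutation p = 0.0364). The cause of these changes was not tested. No paired analysis was made, because each rat was in a single group and the sample titles name no cage or litter. The study describes pair housing and limits the pups per litter in each condition. Rats of a group may therefore share a cage or litter, while the tests treat every rat as independent. Depth limits miR-132-5p most, with 90 counts at its lowest.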
